A study of Mus musculus with 58 samples.

Results

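Small nucleolar RNA (snoRNA) genes were examined in liver tumors and normal liver of adult mice that had received adeno-associated virus (AAV), a gene transfer vector, soon after birth. They were taken as all genes measured by an array cluster with 1 gene symbol that begins with Snora or Snord and a digit, using the cluster of highest mean where a symbol had more than 1. This gave 73 of the 22180 genes tested, namely 26 Snora genes, of the H/ACA box class, and 47 Snord genes, of the C/D box class. Another 43 clusters named a snoRNA together with other symbols and were not used. The study asked whether AAV insertion contributed to liver cancer. It comprised 29 arrays of tumors and 29 of normal liver from 39 animals, of which 18 gave both tissues and 1 gave 2 tumors (tumors 22 and 26).

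All mice, those of both groups included, were of a mixed FVB/NJ, C57BL/6 and 129/Sv background and all had received AAV, so no untreated liver serves as a control here. The labels give neither dose, vector nor age for the groups, beyond adult stage. By the gender label 17 tumor arrays were male, 11 female and 1 of unstated sex, and 20 normal liver arrays were male and 9 female. Titles mark 5 tumors and 5 normal livers +/- and another 5 tumors and 4 normal livers -/-, without naming the gene, and the title of 1 normal liver also says GFP. Each array gave a log2 value per cluster, with array medians between 6.72 and 7.15. The Xist and Y-linked values of 7 arrays went against the gender label, and tumor 9 correlated least with the remaining arrays. Of the 28 snoRNA calls described here, 26 were kept without those 7 arrays and 28 without tumor 9. Albumin (Alb) stood at 13.48 ± 0.59 in tumors and 13.72 ± 0.08 in normal livers (log2, SD, n = 29 each), and 3 of 7 hepatocyte markers were lower in tumors. Markers of Kupffer cells were lower (5 of 5) and those of dividing cells higher (4 of 4 measured, of 5 listed). Among stellate markers 3 of 5 were lower, among endothelial markers 2 of 5, and 1 of each was higher. Of 4 cholangiocyte markers measured 2 were lower, and of 4 T cell markers 1 was higher. No B cell, neutrophil or red cell marker was called. Over all genes 14.3% were lower and 17.9% higher. The part of these shifts in the snoRNA values was not tested. In bulk tissue, fewer cells of a type and less RNA per cell cannot be told apart.

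A snoRNA is a short stable RNA of the nucleolus that works as a guide within a protein particle. C/D box snoRNAs, bound by Fbl, Nop56, Nop58 and Snu13, direct methylation of ribose in ribosomal RNA, and H/ACA box snoRNAs, bound by Dkc1, Gar1, Nhp2 and Nop10, direct conversion of uridine to pseudouridine. A few of either class act instead in cutting the precursor of ribosomal RNA. Most snoRNAs of mammals lie in introns of other genes, called host genes, and are trimmed out of the spliced intron. Many hosts encode ribosomal proteins or translation factors, and others, such as the Snhg genes, encode no protein. An array cluster inside an intron cannot tell the mature snoRNA from unspliced host RNA.

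Many hosts belong to genes whose transcripts start in a run of pyrimidines, a feature that ties their translation to growth signals. The start regions of 3 hosts are shown because their snoRNAs lead the results in either direction. Snhg12 holds 4 snoRNAs that were all lower in tumors, Rpl39 holds the one with the largest fall, and Kansl2 holds the one with the largest rise. Each run covers 50 bases before to 50 bases after the RefSeq start on GRCm38.p6, at chr4:132308628-132308727 (plus strand) for Snhg12, chrX:37085173-37085272 (minus strand) for Rpl39 and chr15:98534220-98534319 (minus strand) for Kansl2, and capitals mark CTTTC or CTTTT anywhere in the bases shown.
Snhg12: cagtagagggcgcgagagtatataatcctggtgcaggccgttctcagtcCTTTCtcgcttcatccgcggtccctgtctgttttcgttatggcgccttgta
Rpl39: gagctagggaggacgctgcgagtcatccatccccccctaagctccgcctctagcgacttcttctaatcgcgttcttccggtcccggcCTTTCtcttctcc
Kansl2: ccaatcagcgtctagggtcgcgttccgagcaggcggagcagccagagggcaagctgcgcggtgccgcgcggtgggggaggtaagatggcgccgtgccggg
The letters CTTTC or CTTTT, which overlap no other motif searched, were looked for on the transcribed strand alone, between 10 bases before and 40 after the start, a window that the match marked in Rpl39 runs past. They were present in 14 of 48 snoRNA hosts with an entry (29.2%) and in 3294 of 27025 genes of the same table (12.2%). A match describes these letters and is not a site. The start regions of Rpl4, Eef1b2 and Snhg1 were also read over the same span and are not printed. Rpl4, which holds the higher Snord16a, had 2 matches. Eef1b2, which holds the lower Snora41, had 1, and Snhg1, which holds the lower Snord22, had none. Whether the letters go with the direction of change was not tested.

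In tumors 28 of the 73 snoRNA genes passed the test, 22 lower and 6 higher (limma, adjusted p under 0.05 over all genes tested). The share of 38.4% stands beside 32.1% called among all genes. By direction, 30.1% of the snoRNA genes were lower against 14.3% of all genes, and 8.22% were higher against 17.9% of all genes. The median log2 change of the snoRNA genes was -0.16 (57 of 73 below 0), against -0.02 over all genes. Changes were small. None of the 73 reached a called log2 change of 1, where 1.98% of all genes did, and 9 reached 0.5, 7 lower and 2 higher, where 8.26% of all genes did. In no member did the 2 tissues separate without overlap.

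**Figure D1:**
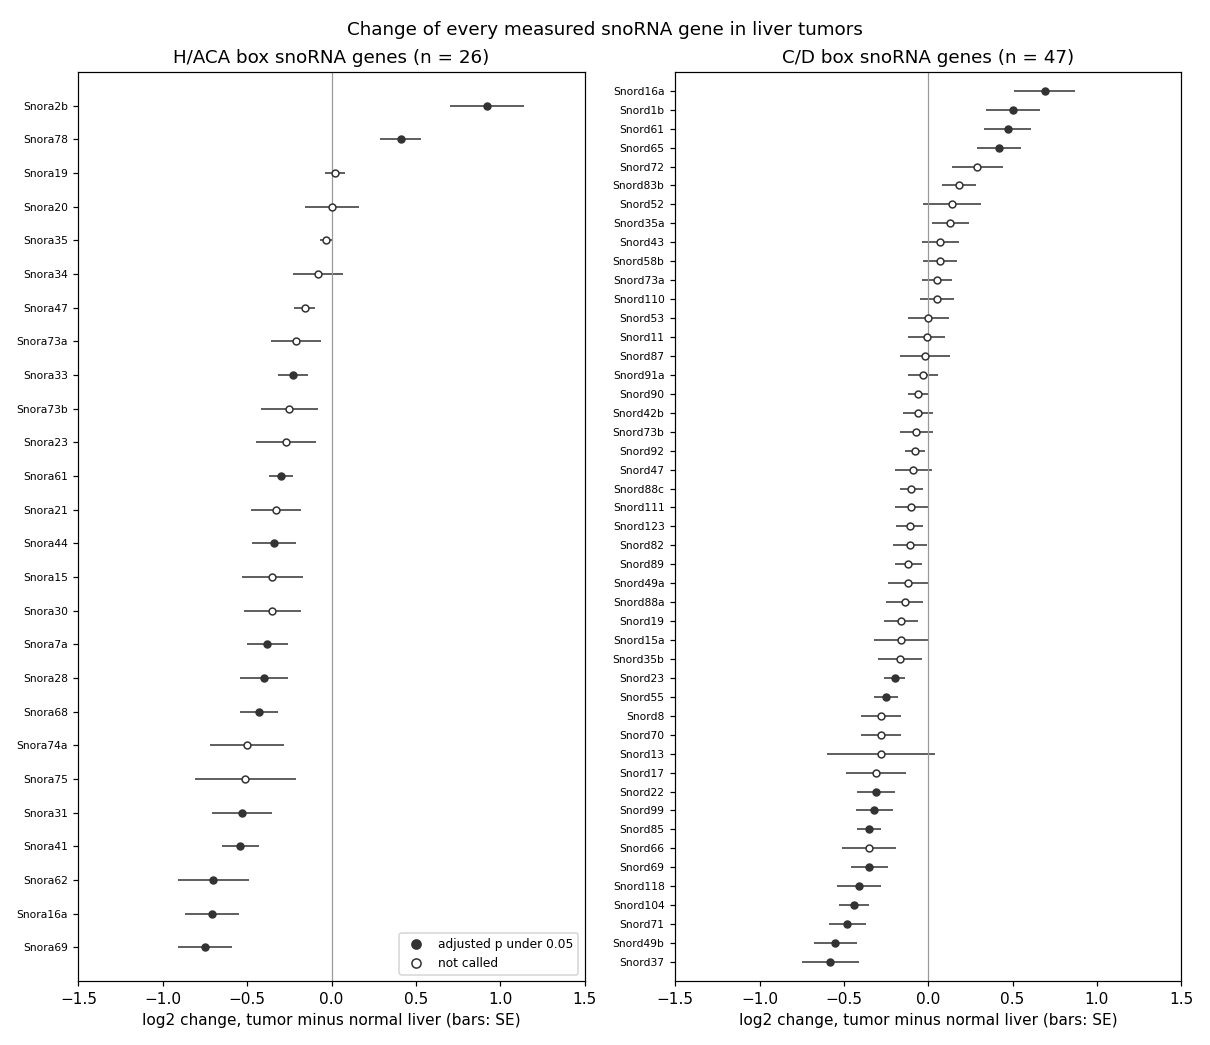
Log2 change (horizontal axis, tumor minus normal liver, bars show the SE) of each of the 26 H/ACA and 47 C/D snoRNA genes, ordered by size, with filled points at an adjusted p under 0.05. The H/ACA points lie mostly below 0, with a median of -0.33, and the C/D points closer to it, with a median of -0.11.

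The H/ACA class held 11 lower and 2 higher genes of 26 (42.3% and 7.69%, against 14.3% and 17.9% of all genes), with a median log2 change of -0.33 and 23 members below 0. The C/D class held 11 lower and 4 higher genes of 47 (23.4% and 8.51%), with a median of -0.11 and 34 below 0. The difference between the classes was not tested, and brightness differs between them. Of the H/ACA clusters 24 of 26 were brighter than the median gene, against 31 of 47 C/D clusters. Among these brighter members the medians were -0.34 and -0.16. Of the 16 dimmer C/D members 1 was lower and 2 were higher, and neither of the 2 dimmer H/ACA members was called. The classes also differ in length, with medians of 118.5 bases for H/ACA and 68 for C/D genes in the reference table. Over the 73 members length had r = 0.46 with the mean level and -0.26 with the log2 change. A fit of the 11090 brighter genes alone called 1920 of them lower and 3303 higher, a larger share than the 32.1% over all genes. Of its 55 snoRNA genes 43.6% were lower and 7.27% higher, and 50.9% were called.

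Among H/ACA snoRNAs, Snora69 had the largest fall. Its lowest, median and highest log2 values were 7.08, 8.22 and 10.29 in tumors, against 8.44, 8.98 and 9.97 in normal livers, and 16 of 29 tumors lay below every normal liver while 2 lay above all of them. The change was -0.75 (SE 0.16, limma adjusted p = 0.000124), or 1.68-fold lower, and 16 of 18 pairs shared its direction. Snora16a ran over 8.31, 9.92 and 11.80 in tumors and over 9.95, 10.94 and 11.59 in normal livers. For it 15 tumors lay below all normal livers and 2 above them, and the change was -0.71 (SE 0.16, adjusted p = 0.000319). Snora62 was lower by nearly as much, at 11.06 ± 0.92 in tumors and 11.73 ± 0.77 in normal livers (log2, SD, n = 29 each), with a wider error (change -0.70, SE 0.21, limma adjusted p = 0.00655).

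Snora41 had the smallest adjusted p of its class. It measured 7.03, 7.63 and 8.61 in tumors (lowest, median, highest) and 7.47, 8.17 and 9.05 in normal livers, with 10 tumors below all normal livers and none above them. The change was -0.54 (SE 0.11, adjusted p = 5.4e-05). Snora61 changed by -0.30 (SE 0.07, adjusted p = 0.000938), Snora68 by -0.43 (adjusted p = 0.00114) and Snora31 by -0.53 (adjusted p = 0.0215), in that order lower in 13, 14 and 15 of 18 pairs. Snora7a, Snora28 and Snora44 were also lower, by 0.34 to 0.40. Snora33 stood nearest inside the threshold (-0.23, adjusted p = 0.0382) and Snora47 nearest outside it (-0.16, adjusted p = 0.0508). Snora33 has 2 clusters, and with their mean in place of the brighter one it did not pass (-0.34, limma adjusted p = 0.0828).

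The H/ACA genes that rose were Snora2b and Snora78. Snora2b had values of 6.91, 8.50 and 11.20 in tumors and 6.39, 7.68 and 9.68 in normal livers, so 6 tumors exceeded every normal liver and none fell under them. Its log2 change was 0.92 (SE 0.22, limma adjusted p = 0.00072), or 1.90-fold higher, with 15 of 18 pairs higher. This was the largest change of all 73 members. Snora78 measured 7.27, 8.12 and 9.28 in tumors and 6.66, 7.74 and 8.72 in normal livers (change 0.41, SE 0.12, adjusted p = 0.0064). In its case 5 tumors lay above all normal livers and none below.

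Among C/D snoRNAs the smallest adjusted p was that of Snord85, at 5.30, 5.64 and 6.37 in tumors and 5.50, 6.02 and 6.60 in normal livers. It was lower in 17 of 18 pairs, and 9 tumors lay below all normal livers. The change was -0.35 (SE 0.07, adjusted p = 4.07e-05), in a cluster dimmer than the median gene. Snord104, the member with the brightest cluster, measured 11.54, 12.40 and 13.39 in tumors and 12.22, 12.88 and 13.16 in normal livers. For Snord104 the change was -0.44 (SE 0.09, adjusted p = 9.2e-05), in 15 of 18 pairs, with 10 tumors below all normal livers and 1 above. Snord49b ran over 8.79, 10.67 and 11.92 in tumors and 10.56, 11.26 and 12.07 in normal livers, with 12 tumors below and none above (change -0.55, SE 0.13, adjusted p = 0.0007). Snord71 changed by -0.48 (SE 0.11, adjusted p = 0.000461). The largest fall of the class, that of Snord37, was -0.58 (SE 0.17, adjusted p = 0.00621). Snord23, Snord55, Snord69 and Snord99 were lower by 0.20 to 0.35.

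The 4 C/D genes that rose were Snord16a, Snord1b, Snord61 and Snord65. Snord16a had values of 6.42, 7.80 and 9.38 in tumors and 6.05, 7.02 and 8.71 in normal livers, with 3 tumors above all normal livers and none below. Its change was 0.69 (SE 0.18, limma adjusted p = 0.0025), or 1.61-fold higher, in 14 of 18 pairs. Snord1b was higher in 16 of 18 pairs (change 0.50, SE 0.16, adjusted p = 0.0141), Snord61 in 15 (0.47, SE 0.14, adjusted p = 0.00737) and Snord65 in 13 (0.42, SE 0.13, adjusted p = 0.0125). Snord1b lost its call without the 7 arrays that go against the gender label (0.41, adjusted p = 0.0814). Snord61 and Snord1b, like Snord85, are dimmer than the median gene, and the files give no detection limit. The next by adjusted p in this direction, Snord72 (0.29, adjusted p = 0.142) and Snord83b (0.18, adjusted p = 0.189), did not pass.

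**Figure D2:**
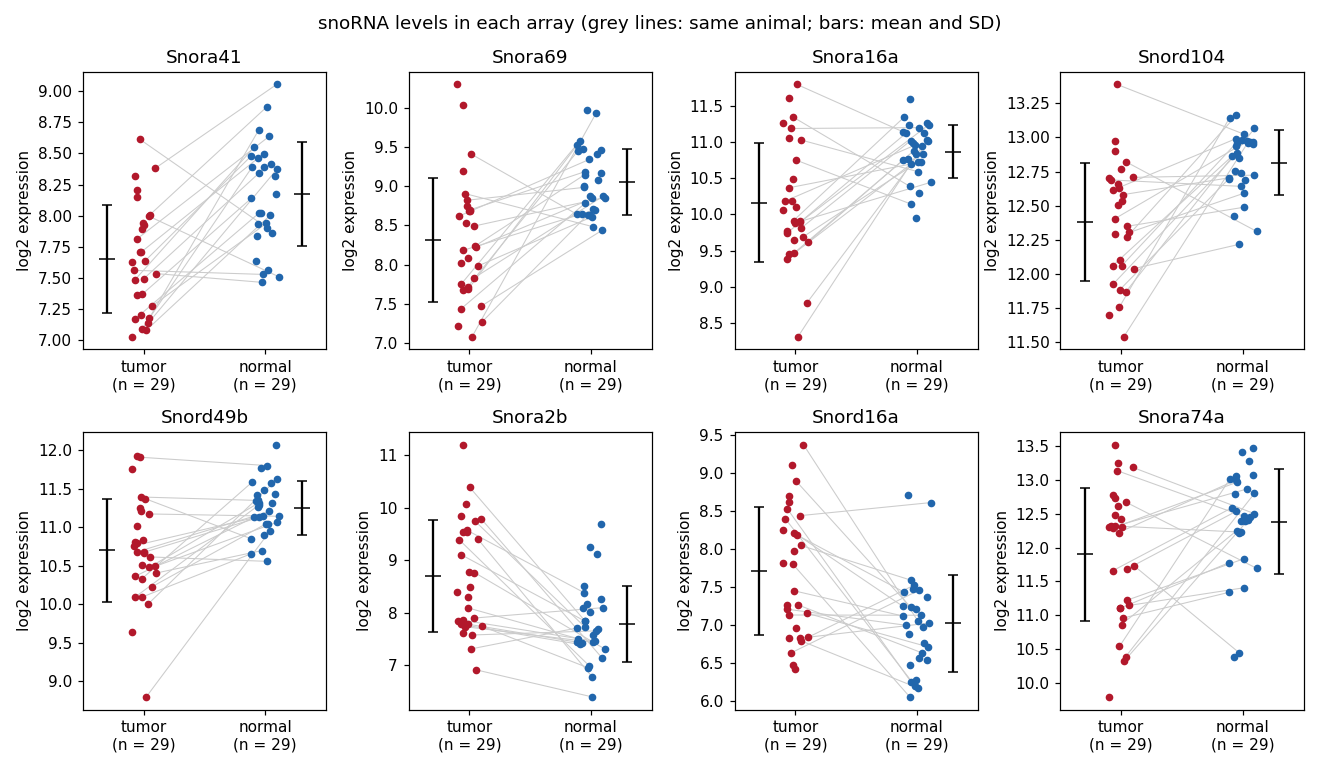
Log2 expression of 8 snoRNA genes in the 29 tumors (left in each panel) and 29 normal livers (right), with grey lines joining arrays of 1 animal and bars for the mean and SD. Tumors overlap normal livers in every panel, and spread more widely in all but that of Snora41 (SD 0.43 against 0.42). Snora69, Snora16a, Snora41, Snord104 and Snord49b are lower on average and Snora2b and Snord16a higher.

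Of the snoRNAs listed here for cutting or other maturation of the ribosomal RNA precursor, 5 were among the 73 genes. The U3 RNA, a C/D box RNA of this cutting, was measured as Rnu3a and so lies outside the symbols used here. It did not pass (8.12 ± 1.23 in tumors and 7.84 ± 0.96 in normal livers, log2, SD, n = 29 each, change 0.28, SE 0.26, limma adjusted p = 0.434). Snord118, the U8 RNA of large subunit maturation in vertebrates, measured 6.69, 7.90 and 9.35 in tumors and 7.37, 8.43 and 9.13 in normal livers, and was lower (change -0.41, SE 0.13, adjusted p = 0.0147). Snord22, the U22 RNA that frog studies tie to small subunit maturation, was lower as well, at 6.96, 8.08 and 9.32 in tumors and 7.97, 8.43 and 9.17 in normal livers, with 13 tumors below all normal livers (change -0.31, SE 0.11, adjusted p = 0.0261). Snord13, the U13 RNA of the small subunit, did not pass (-0.28, SE 0.32, adjusted p = 0.522) and was the most variable C/D member, with an SD of 1.37 in tumors and 1.34 in normal livers. Snora73a (-0.21, adjusted p = 0.321) and Snora73b (-0.25, adjusted p = 0.274), copies of the U17 RNA, did not pass. Their arrays ran together (r = 0.99 in tumors and 0.96 in normal livers), and as near-identical copies they may share signal.

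The other H/ACA members with the brightest clusters, Snora74a (-0.50, SE 0.22, adjusted p = 0.0696) and Snora21 (-0.33, SE 0.15, adjusted p = 0.0785), did not pass. Neither did Snord89 (-0.12, adjusted p = 0.280) or Snord8 (-0.28, adjusted p = 0.0630) among the bright C/D clusters. Snora75 had the largest SD of all members in tumors, 1.40, with 1.06 in normal livers, and did not pass (-0.51, SE 0.30, adjusted p = 0.192). Snord52 (0.14, adjusted p = 0.575), with an SD of 0.88 in tumors and 0.47 in normal livers, and Snord66 (-0.35, adjusted p = 0.0898), with 0.82 and 0.45, were also among the 4 most variable C/D members in tumors and did not pass. The SD was larger in tumors for 63 of 73 members (86.3%), against 67.4% of all genes. The median SD of the members was 0.54 in tumors and 0.42 in normal livers, and that of all genes 0.28 and 0.25.

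A fit to the 18 same-title pairs, blocked by animal, called 1 H/ACA gene higher and 8 lower, and 4 C/D genes higher and 9 lower. Over all genes 12.6% were higher and 8.13% lower in this fit. The median change was -0.37 for H/ACA and -0.14 for C/D genes, and 20 of the 28 calls were kept. The 8 lost were Snora28 (adjusted p = 0.0873), Snora33 (0.163), Snora44 (0.0944), Snora78 (0.0521), Snord23 (0.0564), Snord37 (0.122), Snord65 (0.0595) and Snord99 (0.0584). The 2 new calls were Snord72 (change 0.40, adjusted p = 0.0460) and Snord19 (-0.26, 0.0473). In the 11 tumors and 11 normal livers of animals without a pair, Snora78 was called higher and Snord37 lower, and no other snoRNA gene passed, where 6.18% of all genes were higher and 3.17% lower. All 28 calls had the same direction there, with medians of -0.27 for H/ACA and -0.08 for C/D genes. These arrays are part of the fit that gave the calls, so the shared direction is not separate evidence. The change of Snord85 was -0.08 in those arrays (adjusted p = 0.758) and -0.50 in the pairs (adjusted p = 6.9e-05), a difference that was not tested. Likewise Snord1b had 0.19 (adjusted p = 0.729) without a pair and 0.66 (0.00129) in the pairs, and Snord61 0.20 (0.622) and 0.61 (0.0117).

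Pairs did not move alike. The mean over the H/ACA genes was lower in the tumor in 12 of 18 pairs, with differences between -1.36 and 0.60 and a median of -0.16. The C/D mean was lower in 10 of 18, with differences between -0.69 and 0.31 and a median of -0.04. The animal of tumor 8 had 25 of 26 H/ACA and 39 of 47 C/D genes lower in its tumor (mean differences -1.36 and -0.67). The pair of tumor 19 and normal liver 17 had 23 and 42 lower (-1.07 and -0.69), and in the animal of tumor 5 the H/ACA difference was -1.12 and the C/D difference -0.35. In the pair of tumor 20 and normal liver 19 only 3 of 26 H/ACA genes were lower in the tumor (difference 0.60), while 17 of 47 C/D genes were (0.02). Tumor and normal liver of 1 animal showed little common level of the H/ACA mean (r = 0.06, rho = -0.12 over 18 pairs, and r = -0.25 without the 2 most distant) and more of the C/D mean (r = 0.49, rho = 0.46, and r = 0.33 without the 2 most distant pairs).

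Tumor by tumor, the class means ranged more widely than those of normal livers. With each gene centred on its average over all arrays, the H/ACA mean was -1.20 at the lowest and 1.18 at the highest in tumors, and -0.71 and 0.72 in normal livers (medians -0.0 and 0.12). The group values were -0.13 ± 0.55 in tumors and 0.13 ± 0.33 in normal livers (SD, n = 29 each). The C/D mean lay between -0.79 and 0.78 in tumors and between -0.43 and 0.61 in normal livers (means -0.05 ± 0.33 and 0.05 ± 0.22, medians -0.02 and 0.04). Tumors 18, 8, 19 and 15 lay below all normal livers in the H/ACA mean, at -1.20, -1.14, -0.76 and -0.72. Tumors 8, 18, 19 and 6 did so in the C/D mean, at -0.79, -0.61, -0.48 and -0.47. Tumor 23 was the highest in both, at 1.18 and 0.78, above normal liver 24 with 0.72 and 0.61.

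**Figure D3:**
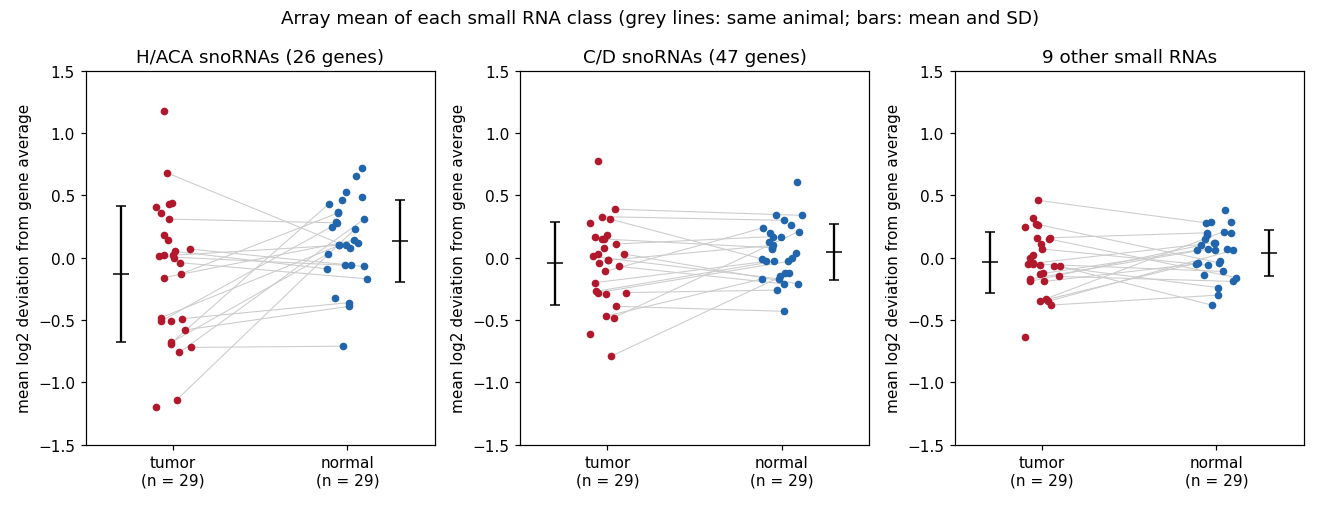
Mean log2 deviation from the gene average (vertical axis) of 26 H/ACA genes, 47 C/D genes and 9 small RNAs of other kinds in each of 29 tumors (left) and 29 normal livers (right), with grey lines for arrays of 1 animal and bars for mean and SD. The H/ACA mean spans -1.20 to 1.18 in tumors and -0.71 to 0.72 in normal livers, and the tumors at either end are the same in the C/D panel or next to it.

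Both classes varied together across arrays. The H/ACA and C/D means correlated with r = 0.90 over 28 tumor animals (rho = 0.86, and r = 0.85 without the 2 animals farthest from the median) and r = 0.67 over 29 normal livers (rho = 0.62, and 0.56 without the 2 farthest). Differences within the 18 pairs gave r = 0.86 (rho = 0.85). These points share an array, and so its RNA, labelling and scaling. Between single members the median r was 0.62 within the H/ACA class in tumors and 0.40 in normal livers, 0.41 and 0.26 within the C/D class, and 0.49 and 0.25 between the classes. Over all gene pairs the median was near 0, with 8.37% above 0.5 in tumors and 8.43% in normal livers. The first principal component of the 73 members held 50.7% of their standardized variance in tumors and 35.5% in normal livers.

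Not every member took part. The correlation of a member with the mean of the other class had a median of 0.69 in tumors and 0.43 in normal livers, and passed 0.5 for 55 and 32 of 73 members. It was highest for Snord17, Snord15a, Snord49b and Snord66 in tumors (0.90 each). Snord90, Snord37 and Snord16a had -0.22, -0.16 and -0.03, and these were the 3 members below 0 in tumors. Across the 73 members this correlation in tumors was related to brightness (r = 0.64), and brightness was also related to the log2 change (r = -0.43).

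Small RNAs with other symbols moved with both classes. The array mean of 16 such genes correlated with the H/ACA mean at r = 0.91 in tumors and 0.90 in normal livers, and with the C/D mean at 0.87 and 0.76. Of these genes 7, namely Rnu3a, 5 Scarna genes and Terc, make RNAs with the same boxes, and Rnu3a is itself a C/D box snoRNA. The 9 without them are Rn7sk, Rnu11, Rnu12, Rnu5g, Rny1, Rny3, Rpph1, Vaultrc5 and n-R5s136, RNAs transcribed from promoters of their own and not cut from introns. For these r was 0.82 in tumors (rho = 0.79, and 0.81 without the 2 farthest) and 0.87 in normal livers (rho = 0.83, and 0.82) with the H/ACA mean, and 0.76 and 0.53 with the C/D mean (0.76 and 0.36 without the 2 farthest). Within pairs the differences gave 0.83 for H/ACA and 0.64 for C/D. Tumor 18 had the lowest level of these 9 RNAs (-0.64), tumors 19 and 8 stood at -0.35 and -0.33, and tumor 23 at 0.32.

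The median of each array over all clusters also moved with the H/ACA mean, with r = 0.66 in tumors (rho = 0.71, and 0.60 without the 2 farthest) and 0.60 in normal livers (rho = 0.52, and 0.45). For the C/D mean these were 0.54 in tumors and -0.0 in normal livers. Over the genes tested alone the array median lay between 7.25 and 7.41, and r with the H/ACA mean was 0.04 in tumors and 0.32 in normal livers. The mean of Mir genes outside the Dlk1-Dio3 locus correlated with the array median at 0.95 and 0.93, and with the H/ACA mean at 0.57 and 0.38. In tumors, snoRNA levels also ran against the mean of the dividing cell markers (r = -0.54 for H/ACA and -0.57 for C/D, or -0.42 and -0.44 without the 2 farthest), and in normal livers at -0.21 and 0.24. The hepatocyte marker mean gave rho = -0.43 and -0.63 in tumors, where tumor 9 stood far below the rest. What made these levels move together, whether array, extraction, labelling or tissue, was not tested.

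**Figure D4:**
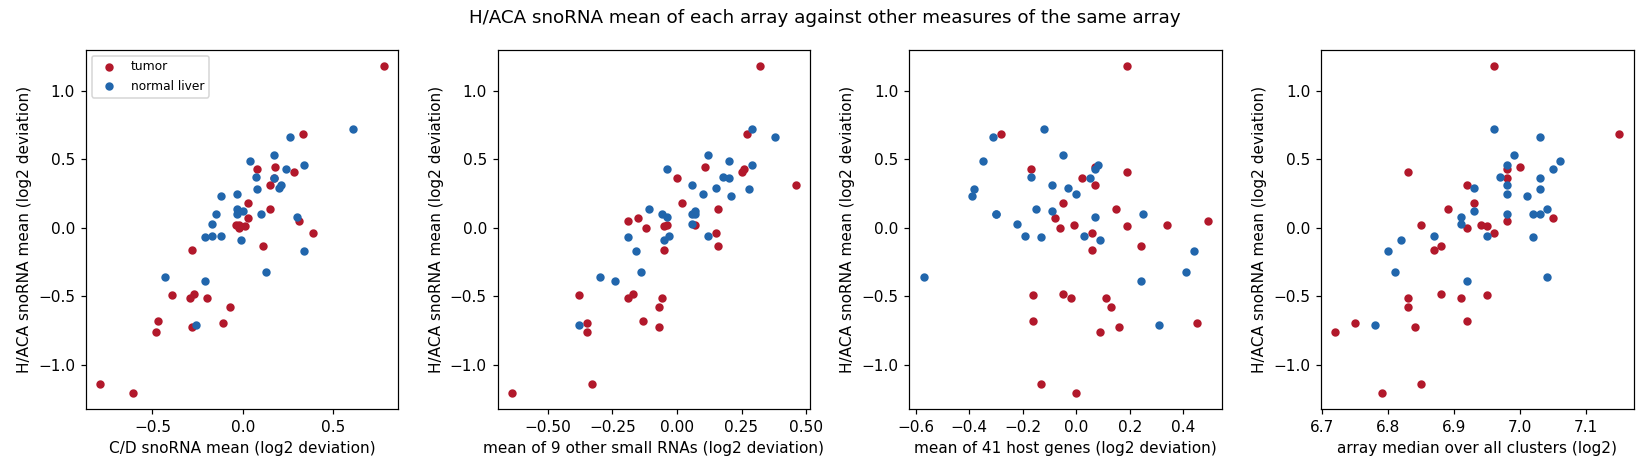
H/ACA snoRNA mean (vertical axis, log2 deviation) of 29 tumors and 29 normal livers against, in 4 panels, the C/D mean, the mean of 9 other small RNAs, the mean of 41 host genes and the array median. The points follow a line in the first 2 panels (r = 0.90 and 0.82 over 28 tumor animals). In the host panel the tumors follow none (r = 0.03), and normal livers gave r = -0.37, or -0.24 without the 2 farthest.

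When the array mean of the 9 other small RNAs entered the fit as a covariate, 24 of the 28 calls were kept with no new one, and the medians were -0.19 for H/ACA and -0.05 for C/D genes. With the mean of all 16, 28 calls were kept and 9 were added. Of the 73 members 32.9% were called with the 9 RNAs as covariate and 50.7% with all 16. Over all 22180 genes, 3758 were higher and 2954 lower with the 9 RNAs, and 4093 and 3378 with all 16. Without a covariate these were 3964 and 3166. With the Mir mean as a covariate 17 were kept, 5 H/ACA genes were lower in place of 11, and the medians were -0.15 and -0.07. In these 3 fits all 28 kept their direction. Centring arrays on the median of all clusters gave 24 of 28 calls, with 18 lower and 6 higher.

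Most host genes that passed the test were higher in tumors, whereas most snoRNAs that passed were lower. Host genes were read from the spans of the RefSeq GRCm38.p6 table, irrespective of strand. Of the 73 members 70 lay within at least 1 gene, and 55 could be set beside a single measured host, 41 hosts in all. Of these hosts 11 were higher and 2 lower in tumors (26.8% and 4.88%, against 17.9% and 14.3% of all genes), with a median log2 change of 0.11. Of the 16 lower snoRNAs with a host, 5 had a host that was lower, 2 one that was higher and 9 one that was not called. Those 5 lie in only 2 hosts, 4 of them in Snhg12 and Snora33 in Rps12, so they are not separate cases. Of the 4 higher ones, 2 had a higher host and 2 a host that was not called. Another 13 snoRNAs that were not called lay in hosts that were higher.

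Within tumors the host mean had r = 0.03 with the H/ACA mean and 0.30 with the C/D mean, and in normal livers -0.37 and 0.29. Differences within the 18 pairs gave -0.42 and -0.17, or -0.13 and -0.07 without the 2 farthest. A single snoRNA and its own host had a median r of 0.22 in tumors and 0.17 in normal livers, and 6 of 55 passed 0.5 in tumors and 9 in normal livers. Host genes themselves varied together, with a median r between hosts of 0.28 in tumors and 0.48 in normal livers.

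**Figure D5:**
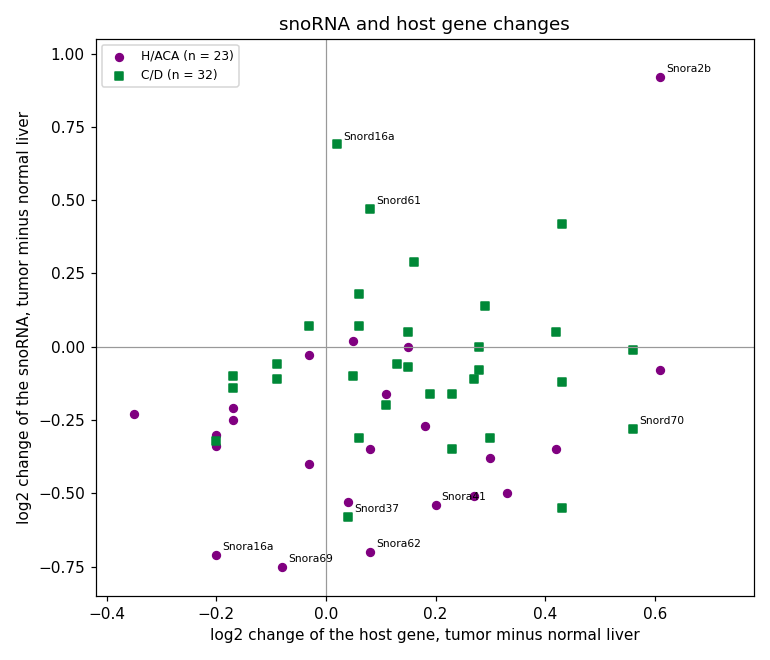
Log2 change of each of 55 snoRNAs (vertical axis, tumor minus normal liver) against that of its host gene (horizontal axis), for 23 H/ACA and 32 C/D snoRNAs. Most hosts lie right of 0 and most snoRNAs below 0, with Snora2b and its host Kansl2 at the upper right and Snora16a in Snhg12 at the lower left.

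Snhg12, a noncoding host, was lower in tumors (7.00 ± 0.28 against 7.20 ± 0.34 in normal livers, SD, n = 29 each, change -0.20, limma adjusted p = 0.0333). The snoRNAs within it, Snora16a, Snora61, Snora44 and Snord99, were all lower, by 0.71, 0.30, 0.34 and 0.32. In the 18 pairs blocked by animal, Snora44 (adjusted p = 0.0944) and Snord99 (0.0584) of these did not pass. In tumors they correlated with each other at 0.53 to 0.78 and with Snhg12 at 0.03 to 0.26. Rps12, a small subunit ribosomal protein gene, was the other host that fell (-0.35, adjusted p = 0.0011), together with its Snora33 (r = 0.69 in tumors and -0.19 in normal livers).

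Kansl2, which encodes a subunit of a histone acetyltransferase complex, was higher in tumors (9.34 ± 0.70 against 8.73 ± 0.39 in normal livers, SD, n = 29 each, change 0.61, limma adjusted p = 0.000422). Its Snora2b rose with it (r = 0.70 in tumors and 0.53 in normal livers), whereas Snora34 from the same gene had a change of -0.08 (adjusted p = 0.718). The noncoding gene 2410006H16Rik, higher by 0.43 (adjusted p = 0.00306), holds 3 C/D snoRNAs that parted. Snord65 rose by 0.42, Snord49b fell by 0.55 and Snord49a had -0.12 (adjusted p = 0.459). Rpsa, which encodes a ribosomal protein, had a change of 0.08 (adjusted p = 0.683) while its Snora62 fell by 0.70, and the pair ran opposite ways across arrays (r = -0.44 in tumors and -0.88 in normal livers). Snord16a rose by 0.69 in Rpl4, whose change was 0.02 (adjusted p = 0.805). Snord37 fell by 0.58 in the elongation factor gene Eef2, at 0.04 (adjusted p = 0.508).

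The measured protein partners of both classes were higher in tumors or not called, where 17.9% of all genes were higher. Fbl was not among the genes tested. Of the C/D core proteins 3 of 3 measured were higher, Nop56 by 0.42 (adjusted p = 4.3e-05), Snu13 by 0.44 (4.65e-05) and Nop58 by 0.56 (0.000844). Of the 4 H/ACA core proteins Nhp2 (0.55, adjusted p = 2.13e-06) and Gar1 (0.39, 0.000255) were higher. Dkc1, the pseudouridine synthase, had a change of 0.34 (adjusted p = 0.0566) and Nop10 of 0.13 (0.0715). The core protein mean did not follow the H/ACA mean (r = -0.18 in tumors and -0.47 in normal livers, or 0.02 and -0.27 without the 2 farthest).

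Among 20 factors of snoRNA particle assembly and trimming 4 were higher and 1 lower (a higher share near the 17.9% of all genes, and 5.0% lower against 14.3%), with Rpap3 up by 0.56 (adjusted p = 1.12e-06), Ruvbl1 by 0.23 (0.000469) and Larp7 by 0.48 (0.00797), and Shq1, the chaperone of dyskerin, lower by 0.18 (0.0396). Of 42 genes of ribosomal RNA synthesis and processing 17 were higher and 1 lower (40.5% and 2.38%, against 17.9% and 14.3% of all genes), with a median change of 0.17. They include Wdr12 (0.42, adjusted p = 8.32e-06), Polr1d of RNA polymerase I (0.29, 0.00011), Rrn3 (0.43, 0.000131) and Myc (0.56, 0.00112). The member that fell was Taf1d (-0.36, adjusted p = 0.0211). Of 17 noncoding hosts 3 were higher and 2 lower (17.6% and 11.8%), shares near those of all genes (17.9% and 14.3%). Rian of the Dlk1-Dio3 locus rose by 2.02 (adjusted p = 0.000119), and Snhg4 by 0.33 (0.00213), the host of Snora74a, while Snhg14 fell by 0.43 (0.00198). None of the 73 members lies between Dlk1 and Dio3 in the reference table, so the rise of that locus adds none to the counts given here.

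Of the 16 other small RNA genes 2 were higher and 2 lower (12.5% each way, against 17.9% and 14.3% of all genes), with a median change of -0.02. Terc, the RNA of telomerase, which is an H/ACA box RNA, rose by 0.65 (SE 0.15, adjusted p = 0.000315), and Scarna2, an RNA of the Cajal body, by 0.46 (adjusted p = 0.00383). Scarna6 fell by 0.79 (SE 0.14, adjusted p = 7.36e-06) in 16 of 18 pairs, and Rny3, a Y RNA, by 0.44 (adjusted p = 0.00857). Of the 9 without snoRNA boxes 1 was lower and none higher, also with a median of -0.02. Among 429 Mir genes outside the Dlk1-Dio3 locus 75 were lower and 18 higher (17.5% and 4.20%, against 14.3% and 17.9% of all genes), with a median of -0.05.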

How the data were processed

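RNA was extracted with a kit that retains small RNAs and labelled with biotin for whole-transcript arrays, per the labels' protocols. The deposited log2 values, 1 per cluster, came from Affymetrix Expression Console according to the submitters' processing notes. Algorithm, normalization and build: not given in the sources used here. Clusters were named by the platform table (23521 of 41345 had 1 symbol), giving 22180 genes.

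Tumors were compared with normal livers in limma 3.58.1 with statmod 1.5.0 in R 4.3.3, with lmFit and the animal as a random block (duplicateCorrelation, 0.145), a mean-dependent prior in eBayes, and p-values adjusted over all genes by Benjamini-Hochberg. Adjusted p under 0.05 was called. Animals were read from the titles, which pair 18 tumors and normal livers, and replicate numbers only name arrays. Correlations are descriptions over arrays within a tissue, with tumors 22 and 26 averaged. Depth has no meaning for arrays, whose number limits the precision. The fit was tested on simulated data. Hosts are genes whose span holds the snoRNA, since strand was not used. Figures were drawn with matplotlib 3.10.9 in Python 3.11.15.

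Named snoRNAs are the 8 of smallest adjusted p each way, the 4 of highest mean and of largest tumor SD per class, those listed for rRNA cleavage or other maturation and those nearest the threshold. Others in the text, such as Snora62, Snora68, Snord37, Shq1 and Taf1d, and the hosts discussed, were chosen after their values were seen. From each list the 3 of smallest adjusted p and the largest change were taken. The members and lists were chosen with earlier results of these data known. Alternatives covered scaling, filters, variance prior, block, pairs, weights, samples, sex, titles and covariates.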

Additional observations from a re-analysis of the deposited data

How the results depend on the processing

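Across 17 alternatives all calls that could be fitted kept their direction. The alternatives reuse arrays that gave the calls, so this is not separate evidence. The median changes stayed below 0, between -0.46 and -0.15 for H/ACA genes and between -0.16 and -0.05 for C/D genes. Counts depended more on the setting. In animals without a pair, 1 H/ACA gene was higher and 0 lower, and 0 C/D genes were higher and 1 lower, with 11 arrays a group. In the 18 pairs, blocked by animal, 1 H/ACA gene was higher. With array weights 18 H/ACA and 18 C/D genes were lower, in a fit that called 6169 of all 22180 genes lower, against 3166 without weights. With the Mir mean as a covariate 5 H/ACA genes were lower (19.2%), in a fit that called 2822 of all 22180 genes lower. Among brighter genes only 2 C/D genes were higher, since 2 of the 4 are dimmer. Of 28 calls 24 were kept with arrays centred on the median of all clusters, where 4689 of all genes were higher and 1727 lower (73.1% higher, against 55.6% with the values as deposited). That scaling and the covariate of small RNAs without boxes were added after seeing the data. The cause of these shifts was not tested. Leaving out members of the Dlk1-Dio3 locus changed nothing, as there are 0. No detection limit or scanner output was used, so dim clusters may hold little signal.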
